A study of Homo sapiens with 6 samples.

Results

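RNA sequencing was used to measure transcripts of 10 genes of the smooth muscle contractile apparatus and its filaments in LX-2, an established human line of hepatic stellate cells. The genes were chosen by name from the deposited table of 60748 genes: ACTA2, ACTG2, TAGLN, CNN1, MYL9, TPM1, TPM2, MYH11, DES and VIM. Cells infected with a lentivirus carrying an empty vector (LX-2Vector, 3 libraries) were compared with cells infected with the same vector carrying the coding sequence of fibroblast activation protein α (LX-2FAP, 3 libraries). The vector used a ubiquitin promoter and held EGFP and a puromycin resistance gene in both groups, so LX-2Vector cells were infected and selected too, and every culture was kept for 24 h. The methods name stable cell clones selected with puromycin and do not state whether the libraries of a group came from separate cultures. The p-values below therefore measure only the spread among these libraries. Whether a group was a single clone is not stated either, so differences between clones cannot be told apart from those tied to FAP.

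Hepatic stellate cells are the pericytes of the liver sinusoid. When they are activated in injured liver they become myofibroblasts, in which smooth muscle actin joins stress fibres that a phosphorylated myosin pulls on. The proteins that dress these fibres, such as tropomyosins, calponin and transgelin, are shared with vascular smooth muscle, and many of their genes are controlled by serum response factor (SRF), which binds a DNA element called the CArG box. Vimentin and desmin build the intermediate filaments that lie beside the actin system, and desmin is a classical marker of stellate cells in rodents.

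Of the 10 genes, 9 had enough counts to be tested, and only VIM differed between the groups at an adjusted p under 0.05. It was 1.10-fold higher in LX-2FAP cells. That call held in 1 of 6 fits with a library left out and in 7 of 10 other settings. No gene of the set was called lower, although ACTA2 and TPM1 were lower in each LX-2FAP library than in any LX-2Vector library. The shares over all tested genes were 2.57% called higher and 2.73% called lower, with 13.4% lower and 13% higher without overlap. DES was nearly undetected, and the muscle isoforms of actin, heavy chain, calponin and transgelin were small fractions of their families, which were made up mostly of the nonmuscle isoforms.

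Values of single libraries are given in the order of replicates 1, 2 and 3. The sequenced libraries held 17355700 to 26352060 counts each. FAP, the overexpressed gene, had 42 to 55 counts in the LX-2Vector libraries and 14805 to 15160 in the LX-2FAP libraries, so each library matched its label. Stellate cell markers were present unevenly: TIMP1 and SPARC were abundant, whereas LRAT and DES had 3 or fewer counts in every library. Of the 14 stellate markers, 11 were tested and 3 were called lower in LX-2FAP cells, namely COL1A1 (log2 fold change -0.40, SE 0.08), COL3A1 (-0.69, SE 0.12) and PDGFRB (-0.38, SE 0.09), with edgeR quasi-likelihood adjusted p = 0.0135, 0.00765 and 0.0269. Of all tested genes, edgeR called 2.73% lower. COL3A1 stayed called in 5, COL1A1 in 3 and PDGFRB in 2 of 6 fits with a library left out. In the 10 other settings, COL3A1 stayed called in 8, COL1A1 in 7 and PDGFRB in 7. DESeq2 did not call COL1A1 (DESeq2 adjusted p = 0.0502), and PDGFRB was lost with a trend on GC content removed (edgeR adjusted p = 0.0629). The summed level of the 14 was 223.7 to 233.8 FPKM (fragments mapped to a gene, scaled to its length and to library size) in LX-2Vector and 211.8 to 218.7 in LX-2FAP. Markers of other cells were low, with sums in any library of at most 3.04 FPKM for 6 hepatocyte markers, 2.74 for 4 macrophage and leukocyte markers and 1.82 for 5 endothelial markers, among which VWF was called lower (log2 fold change -1.06, edgeR adjusted p = 0.0268), a call kept in 2 of 6 fits with a library left out. The 5 epithelial markers summed to 60.2 to 62.4 FPKM in LX-2Vector and 53.5 to 59.6 in LX-2FAP, nearly all of it KRT8 and KRT18. The part of these markers in the results below was not tested. All libraries came from the LX-2 line. In such bulk samples, fewer cells with a transcript cannot be told apart from less RNA per cell.

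The levels of the 10 genes spanned a wide range, as the plot of levels by library shows. On the FPKM scale, VIM stood first in LX-2Vector cells at 300.8 ± 7.56 (SD, n = 3). MYL9 (43.8 ± 3.52) and TPM2 (40.9 ± 1.80) followed, with libraries that overlapped each other, and then TPM1 (19.2 ± 0.944). A second tier held TAGLN at 2.10 ± 0.202 FPKM, CNN1 at 1.49 ± 0.211 and ACTA2 at 1.29 ± 0.119, of which CNN1 and ACTA2 overlapped. MYH11 (0.201 ± 0.00940) and ACTG2 (0.160 ± 0.0392) formed the lowest tested tier, also overlapping, and DES came last. The order of the means was the same in LX-2FAP cells, where MYL9 and TPM2 again overlapped and the libraries of CNN1 and ACTA2, and of MYH11 and ACTG2, no longer did.

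**Figure D1:**
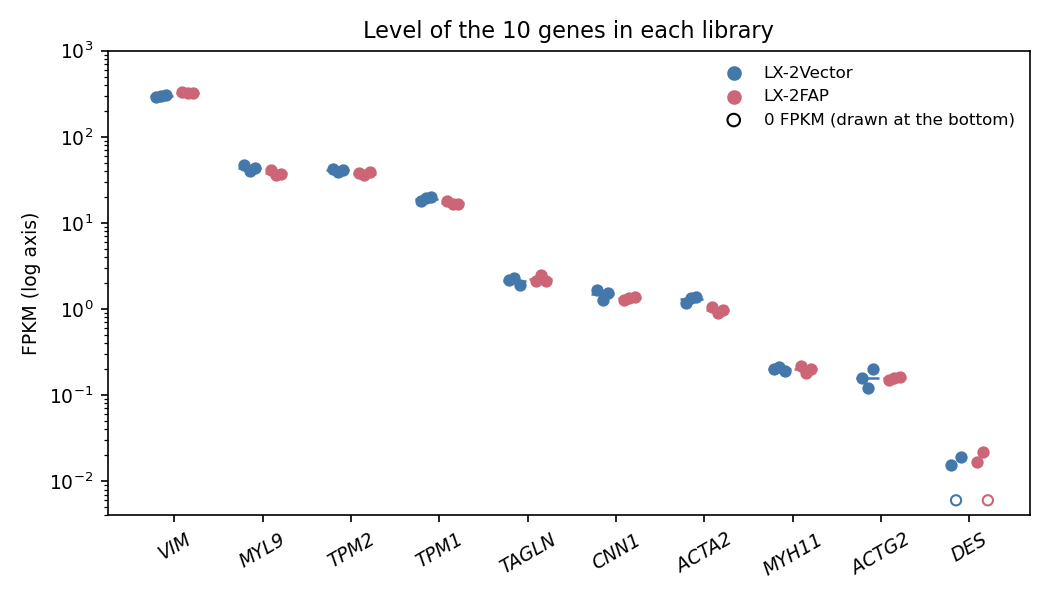
Deposited FPKM of the 10 genes (log axis) in the 3 LX-2Vector libraries (blue points) and the 3 LX-2FAP libraries (red points), with a short line at each group mean except for DES; open points mark libraries with 0 FPKM. VIM lies near 300.8 FPKM, and DES lies at or below 0.0220 FPKM in all 6 libraries.

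That order depends on the length assigned to each gene. The deposited FPKM imply gene lengths of 13765 bases for TPM1 and 6550 for TAGLN, whereas the longest principal transcript of GENCODE release 29 has 1049 and 2166 bases. Dividing CPM by the length of that transcript, an alternative chosen after seeing the data, changed the rank of 4 genes in LX-2Vector cells. TPM1 then stood second at 252.1 per kilobase, above TPM2 at 93.6 and MYL9 at 43.6, and ACTA2 (2.86) stood just above CNN1 (2.59), with overlapping libraries. In LX-2FAP cells on that scale, CNN1 (2.33) stood above ACTA2 (2.15), also with overlapping libraries.

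The smooth muscle actins were examined first. ACTA2 (ENSG00000107796, GRCh38 chromosome 10, 88935074 to 88991339, minus strand) encodes smooth muscle α-actin, the usual marker of the activated stellate cell. It had 91, 69 and 87 counts in LX-2Vector, against 76, 49 and 61 in LX-2FAP. Scaled to library size with TMM factors (normalized CPM, counts scaled to a common library size), its levels were 3.44, 3.93 and 4.09 in LX-2Vector and 3.17, 2.72 and 2.91 in LX-2FAP. Every LX-2FAP library was thus below every LX-2Vector library, but by a narrow gap. The log2 fold change was -0.36 (SE 0.14, 95% interval -0.67 to -0.06), a level 0.777 times that of LX-2Vector, and it did not pass the correction over all tested genes (edgeR quasi-likelihood adjusted p = 0.145). The adjusted p ran from 0.12 to 0.364 over 15 alternative settings, and the fold change was below 0 in all 15. DESeq2 is not among them, because it gave no adjusted p for ACTA2. Of the exonic bases of ACTA2, 30.1% lie opposite exons of the antisense gene ACTA2-AS1, and whether counting used the strand is not stated, so reads of the pair cannot be told apart.

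ACTG2 (ENSG00000163017, chromosome 2, 73892314 to 73919865, plus strand) encodes the γ-actin of visceral smooth muscle. It had 16, 8 and 16 counts in LX-2Vector and 14, 11 and 13 in LX-2FAP. The groups overlapped, and the log2 fold change of -0.02 had a 95% interval from -0.65 to 0.61, so changes of up to 36.3% downwards or 52.9% upwards were not resolved at this depth (SE 0.30, edgeR adjusted p = 0.982).

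Of the 10 genes, 6 had a promoter in the RefSeq table used here (GRCh38.p14, 8 windows of 300 bases), and TAGLN, MYL9, MYH11 and DES had none. CArG boxes were searched by script on both strands of the 250 bases before each start. In all 34788 windows, 1.17% held a box and 7.05% held a box or a near match with 1 base other than A or T in its core. The 2 muscle actins were the only genes of the 6 with a match. ACTG2 held a pair of exact boxes, the second of which (CCTTTTTAGG) ends 1 base into an annotated exon. ACTA2 held a pair of near matches. CNN1, TPM1, TPM2 and VIM held neither in these windows. The upstream sequences of both actins, and that of VIM for contrast, are shown because they hold the matches found and an example with none. Capitals mark boxes and near matches that are printed whole, and exonic bases are left out, so the second box of ACTG2 stands without its last base, in lower case, at the end of its line.
ACTA2, chr10:88952774-88953023, minus strand: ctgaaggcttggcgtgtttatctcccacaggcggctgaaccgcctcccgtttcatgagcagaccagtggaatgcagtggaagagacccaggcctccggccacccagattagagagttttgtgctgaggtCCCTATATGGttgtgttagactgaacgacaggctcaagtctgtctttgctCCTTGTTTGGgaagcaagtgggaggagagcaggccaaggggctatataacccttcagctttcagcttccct
ACTG2, chr2:73892758-73892943, plus strand: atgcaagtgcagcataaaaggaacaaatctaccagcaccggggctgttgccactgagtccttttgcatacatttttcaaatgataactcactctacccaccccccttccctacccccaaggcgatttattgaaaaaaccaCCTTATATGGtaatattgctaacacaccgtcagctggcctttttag
VIM, chr10:17227991-17228240, plus strand: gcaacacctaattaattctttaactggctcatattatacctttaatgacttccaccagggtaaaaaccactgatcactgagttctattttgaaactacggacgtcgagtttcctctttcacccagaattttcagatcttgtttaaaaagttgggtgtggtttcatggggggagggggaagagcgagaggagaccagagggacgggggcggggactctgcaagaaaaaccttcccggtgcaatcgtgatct

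Among the motor subunits, MYL9 (ENSG00000101335, chromosome 20, 36541484 to 36551447, plus strand) encodes the regulatory light chain of smooth muscle myosin, whose phosphorylation switches the motor on. Its normalized CPM were 133.0, 112.4 and 120.9 in LX-2Vector and 115.3, 102.4 and 105.9 in LX-2FAP. The groups overlapped, because LX-2FAP replicate 1 lay above LX-2Vector replicate 2. The log2 fold change of -0.18 (SE 0.06, 95% interval -0.31 to -0.05) did not pass the correction (edgeR adjusted p = 0.0862). It passed in 4 of 16 alternative settings, among them the fit without LX-2FAP replicate 1 (log2 fold change -0.23, edgeR adjusted p = 0.0267). The others were no filter on low counts (edgeR adjusted p = 0.00893), library size alone (0.0477) and a block for replicate number (0.0303). It was nearer 0 without LX-2Vector replicate 1 (-0.11, edgeR adjusted p = 0.287) and with a trend on GC content removed (-0.09, adjusted p = 0.314).

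MYH11 (ENSG00000133392, chromosome 16, 15703172 to 15857033, minus strand) encodes the heavy chain of smooth muscle myosin and marks differentiated smooth muscle. It had 93, 65 and 72 counts in LX-2Vector and 94, 59 and 76 in LX-2FAP. The groups overlapped, and the log2 fold change was 0.04 (SE 0.14, 95% interval -0.25 to 0.33, edgeR adjusted p = 0.899). Of its exonic bases, 8.05% lie opposite NDE1, a gene of the other strand.

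The actin-binding proteins came next. TPM1 (ENSG00000140416, chromosome 15, 63042632 to 63071915, plus strand) encodes a tropomyosin, a coiled coil that lies along the actin filament and controls access of myosin. Its normalized CPM were 249.7, 264.3 and 273.3 in LX-2Vector and 247.0, 230.5 and 229.7 in LX-2FAP. LX-2FAP replicate 1 lay just under the lowest LX-2Vector library, and the other two lay further down. The log2 fold change was -0.15 (SE 0.05, 95% interval -0.25 to -0.06), a level 0.899 times that of LX-2Vector, just outside the threshold (edgeR adjusted p = 0.0575). TPM1 was inside the threshold in 5 of 16 alternative settings. With a library left out, it was inside without LX-2Vector replicate 1 (edgeR adjusted p = 0.0438) and without LX-2FAP replicate 1 (0.0197). The other passing settings were no filter on low counts (edgeR adjusted p = 0.0152), library size alone (0.0327) and DESeq2 (0.0497). Its largest adjusted p was 0.288, in edgeR without LX-2FAP replicate 3. Exons of TPM1-AS on the other strand cover 21.4% of its exonic bases.

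TPM2 (ENSG00000198467, chromosome 9, 35681992 to 35690121, minus strand), the β-tropomyosin gene, had 136.0, 123.6 and 128.2 normalized CPM in LX-2Vector and 121.0, 116.0 and 124.6 in LX-2FAP. Its groups overlapped, and its log2 fold change of -0.10 (SE 0.05) was not called (edgeR adjusted p = 0.216).

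CNN1 (ENSG00000130176, chromosome 19, 11538717 to 11550323, plus strand) encodes calponin, which binds actin and restrains its myosin. It had 4.73, 3.53 and 4.33 normalized CPM in LX-2Vector and 3.67, 3.89 and 4.01 in LX-2FAP. The LX-2FAP values all lay within the LX-2Vector range (log2 fold change -0.14, SE 0.14, 95% interval -0.44 to 0.15, edgeR adjusted p = 0.602). TAGLN (ENSG00000149591, chromosome 11, 117199321 to 117204782, plus strand) encodes transgelin, an actin-bundling protein also called SM22α. It had 14.1, 14.7 and 12.2 normalized CPM in LX-2Vector and 14.0, 16.5 and 14.1 in LX-2FAP. It was the only gene of the actin-binding group above 0, with overlapping groups (log2 fold change 0.12, SE 0.09, 95% interval -0.08 to 0.32, edgeR adjusted p = 0.502). Of the TAGLN exonic bases, 11.4% lie opposite PCSK7.

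**Figure D2:**
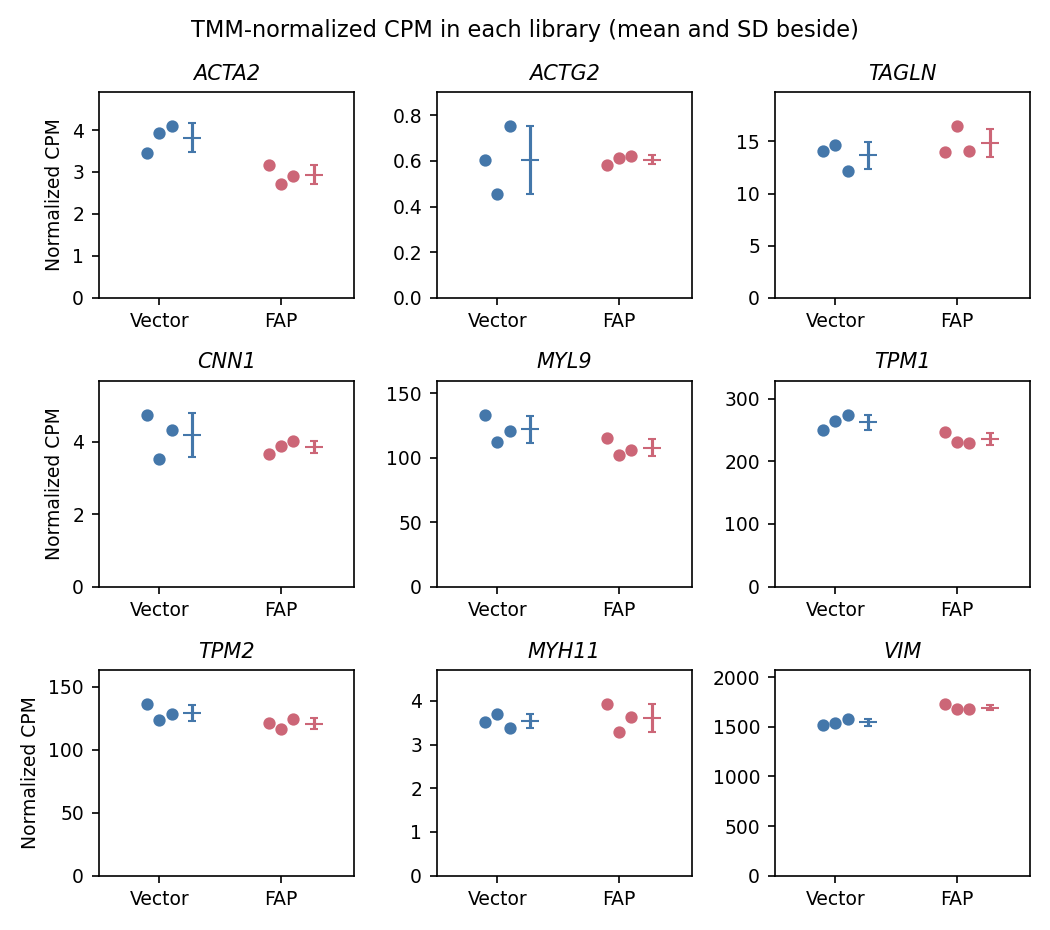
TMM-normalized CPM (linear axes from 0) of the 9 tested genes in the 3 LX-2Vector (blue) and 3 LX-2FAP (red) libraries, drawn from replicate 1 on the left to replicate 3 on the right, with the mean and SD of each group beside the points. ACTA2 and TPM1 are lower and VIM is higher in LX-2FAP without overlap, while the other 6 genes overlap. Among all tested genes, 13.4% are lower and 13% are higher without overlap.

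The intermediate filament genes were at the opposite ends of the range. VIM (ENSG00000026025, chromosome 10, 17228259 to 17237593, plus strand) encodes vimentin, the main filament protein of mesenchymal cells. It had 1517, 1534 and 1584 normalized CPM in LX-2Vector and 1727, 1679 and 1677 in LX-2FAP. All LX-2FAP libraries were above all LX-2Vector libraries, and the gap between the nearest pair exceeded the SD of either group (34.5 and 28.2 CPM). The log2 fold change was 0.13 (SE 0.03, 95% interval 0.06 to 0.21), an increase of 9.69% (edgeR adjusted p = 0.0372). The call was thin: with 1 library left out it held without LX-2Vector replicate 3 (edgeR adjusted p = 0.0499) and was lost without LX-2Vector replicate 1 (0.0683) or 2 (0.0871) and without LX-2FAP replicate 1 (0.0506), 2 (0.111) or 3 (0.162), while the log2 fold change stayed between 0.12 and 0.16. Both limma-trend fits lost the call too (limma-trend adjusted p = 0.249 and 0.240), with 2 genes of the whole table called in each. The call was also lost when libraries were scaled by their totals alone (log2 fold change 0.10, edgeR adjusted p = 0.0928). TMM factors were 1.00 to 1.01 in LX-2Vector and 0.988 to 0.993 in LX-2FAP. Exons of VIM-AS1 cover 24.4% of the VIM exonic bases on the opposite strand.

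DES (ENSG00000175084, chromosome 2, 219418377 to 219426739, plus strand) encodes desmin. It had 1, 0 and 1 counts in LX-2Vector and 1, 1 and 0 in LX-2FAP, and was too low to be tested. Pooled over a group, 2 counts gave 0.0309 CPM in LX-2Vector (exact Poisson 95% interval 0.00374 to 0.112) and 0.0314 CPM in LX-2FAP (0.00380 to 0.113), which covers counting error only. No word of a read's length from any of the 10 genes was shared, in the same orientation, with a transcript of another gene in GENCODE release 29. Reverse complements were not compared, so the overlaps with genes of the opposite strand are not covered by this search.

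The counts of calls in the set were set beside those of the whole transcriptome. Of all 18275 tested genes, 2.57% were called higher and 2.73% lower, against 1 (VIM) and 0 of the 9 tested genes of the set in edgeR. At an unadjusted p under 0.05, 11.6% of all tested genes were lower and 10.5% higher, against 4 (ACTA2, MYL9, TPM1 and TPM2) and 1 (VIM) of the set. DESeq2 called 2.23% of all tested genes lower and 3.41% higher, and in the set TPM1 lower and VIM higher. It gave no adjusted p for ACTA2, ACTG2, CNN1 and MYH11, so it could not call these genes. Groups that did not overlap were found for 13.4% of tested genes in the lower and 13% in the higher direction, and for 2 and 1 of the 9. The study's cutoff, a fold over 1.2, with an unadjusted p under 0.05, took 6.44% of tested genes as lower and 1.45% as higher, and in the set ACTA2 as lower and none as higher. The median log2 fold change of the 9 was -0.10, with 6 below 0, against -0.01 over all tested genes, 53.0% of which were below 0. VIM and TAGLN lay above the upper quartile of all tested genes (0.09), and ACTA2, MYL9 and TPM1 below the lower quartile (-0.14). With a trend on GC content removed, 5 of the 9 were below 0. The log2 fold changes of MYL9 (-0.09), CNN1 (-0.06) and TPM2 (-0.04) were then nearer 0, while those of ACTA2 (-0.33) and TPM1 (-0.16) changed less.

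**Figure D3:**
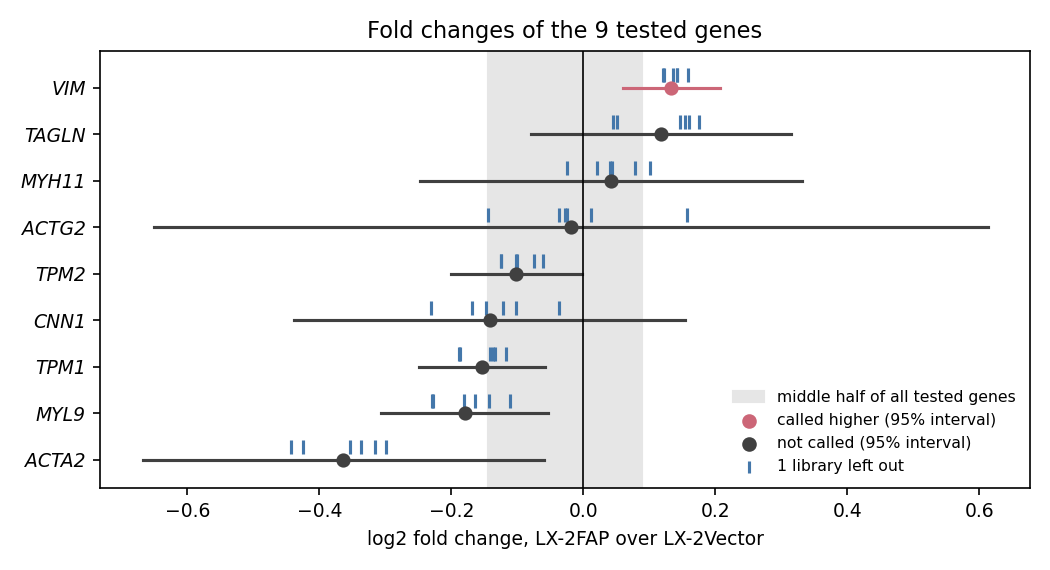
Log2 fold changes, LX-2FAP over LX-2Vector, of the 9 tested genes from edgeR (points) with 95% intervals (lines), the values with each of the 6 libraries left out (ticks) and the interquartile range of all tested genes (grey band, -0.14 to 0.09). VIM is called higher, and the intervals of ACTA2, MYL9, TPM1 and TPM2 lie below 0 without passing the correction.

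Each contractile gene of the set has nonmuscle relatives that most cells use, and these made up the bulk of nearly every family, as the plot of family shares shows. Shares are of summed FPKM within a library and do not depend on scaling between libraries, though they do depend on gene length. Within a family they add to a fixed total, so a higher share of a gene lowers those of its relatives. ACTA2 made up 0.127% ± 0.0192 of the transcripts of 6 actin genes in LX-2Vector cells and 0.105% ± 0.00419 in LX-2FAP cells (SD, n = 3 each), with overlapping libraries, against 59.8% for ACTG1 and 40.1% for ACTB in LX-2Vector cells. MYH11 made up 0.0702% of the heavy chains of nonmuscle and smooth muscle myosin in LX-2Vector cells, beside MYH9 at 88.6% and MYH10 at 11.4%. CNN1 made up 1.06% of the calponins and TAGLN 0.935% of the transgelins, and the groups overlapped for both. Shares depended on the length used: on the CPM scale, which is not scaled to length, the LX-2Vector shares were 0.0898% for ACTA2, 0.139% for MYH11 and 2.66% for TAGLN. The families of calponins, transgelins, heavy chains and light chains, and the choice of cytoplasmic genes among the filament genes, were added after the values were seen.

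The tropomyosins and regulatory light chains were more mixed. TPM1 held 10.2%, 10.9% and 11.1% of tropomyosin FPKM in LX-2Vector, and 9.94%, 9.28% and 9.15% in LX-2FAP. TPM2 held 24.1%, 22.0% and 22.4% in LX-2Vector and 21.1%, 20.2% and 21.5% in LX-2FAP. TPM3 held 27.1%, 26.6% and 25.4% in LX-2Vector and 28.3%, 29.9% and 29.3% in LX-2FAP. The shares of TPM1 and TPM2 did not overlap between the groups and were lower in LX-2FAP, while that of TPM3 was higher, also without overlap. How often family shares fail to overlap was not computed, for these or for the shares below. In normalized CPM, 13.4% of all tested genes were lower and 13% higher without overlap. TPM4 overlapped at 40.1% ± 1.39 and 40.4% ± 0.326. These shares depend on each other, and the normalized CPM of TPM2 overlapped between the groups. On the CPM scale TPM2 held 6.52% and TPM1 13.2% of the tropomyosins in LX-2Vector, against 5.84% and 11.4% in LX-2FAP, which turns the order of TPM1 and TPM2. Tropomyosin genes give several isoforms by splicing and start site, among them muscle and nonmuscle forms, which counts per gene do not separate. The ratio of TPM1 to TPM3 within a library was 0.377, 0.409 and 0.436 in LX-2Vector and 0.351, 0.310 and 0.312 in LX-2FAP. This ratio was not planned, and it sets the tropomyosin with the lowest fold change over the one with the highest.

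MYL9 held 13.6%, 11.6% and 12.5% of the regulatory light chain FPKM in LX-2Vector and 10.9%, 9.95% and 10.1% in LX-2FAP. These shares did not overlap between the groups, whereas the normalized CPM of MYL9 did. The nonmuscle light chain MYL12B was higher without overlap (58.3% ± 0.402 against 60.0% ± 0.166), and MYL12A overlapped. With 3 libraries a side, an exact 2-sided permutation test of such a share cannot give a p below 0.1, and none was run.

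**Figure D4:**
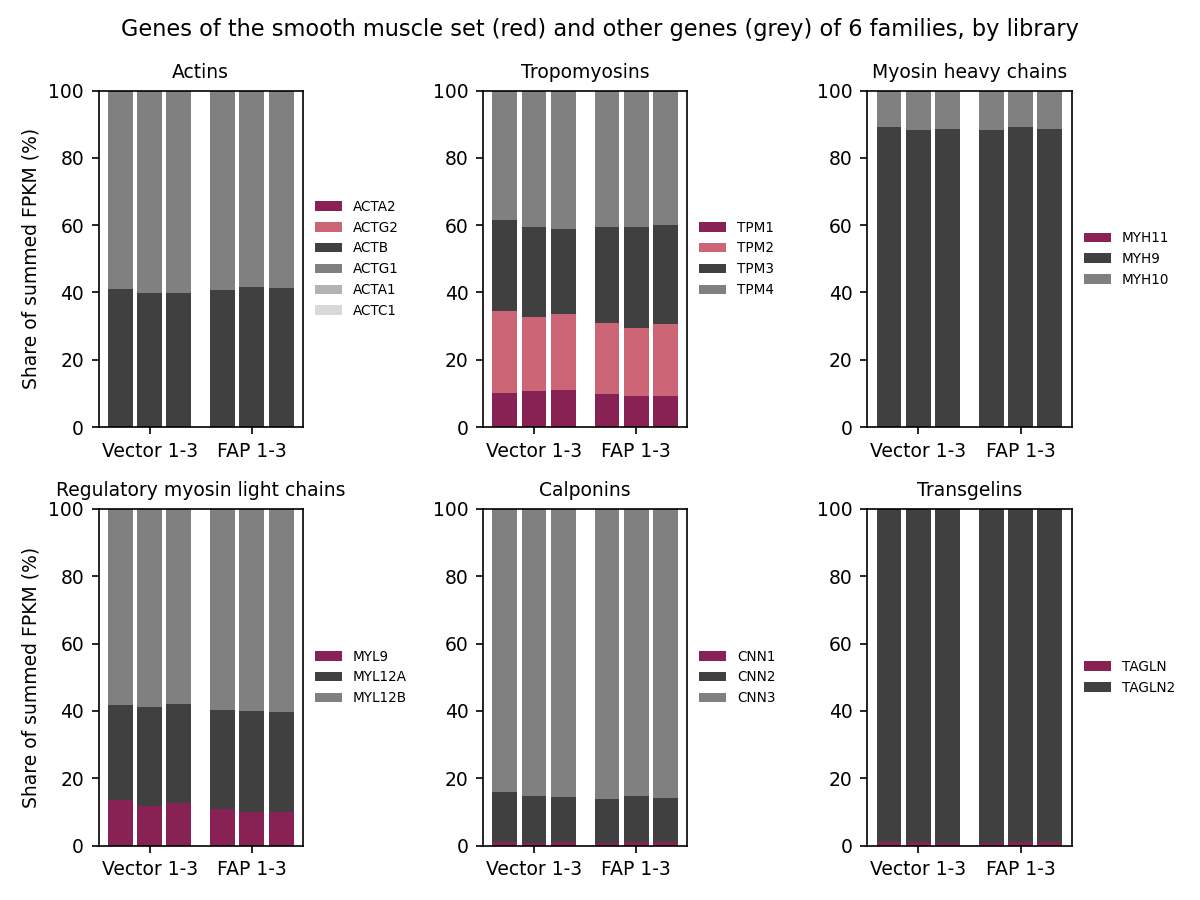
Share of summed FPKM (%, stacked to 100) held by each gene of 6 families in the 3 LX-2Vector and 3 LX-2FAP libraries; genes of the smooth muscle set are in reds and the other genes in greys. The set's genes are barely visible among actins, heavy chains, calponins and transgelins, and the TPM1, TPM2 and MYL9 bands are narrower in the LX-2FAP libraries.

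In the list of 20 nonmuscle cytoskeletal genes, all tested, 3 were called higher and 0 lower by both edgeR and DESeq2. Of all tested genes, edgeR called 2.57% higher and 2.73% lower, and DESeq2 called 3.41% higher and 2.23% lower. At an unadjusted p under 0.05 (11.6% of all tested genes lower, 10.5% higher), 4 of the list were lower and 3 higher. The 3 called genes were relatives of genes in the set. TPM3 rose by 0.17 on the log2 scale (SE 0.04, edgeR adjusted p = 0.0192). MYL12B rose by 0.15 (SE 0.04, adjusted p = 0.0323) and MYL12A by 0.14 (SE 0.04, adjusted p = 0.0452), both on the log2 scale in edgeR. MYL12A and MYL12B are close paralogs, so how reads were divided between them is uncertain. With 1 library left out, the TPM3 call was lost without LX-2Vector replicate 3 or LX-2FAP replicate 2 or 3, that of MYL12B held without LX-2Vector replicate 1 or LX-2FAP replicate 1, and that of MYL12A held without LX-2FAP replicate 1, both light chains losing it in the other fits. ACTG1 had the highest level of the list, 615.6 FPKM in LX-2Vector and 546.8 in LX-2FAP, and was not called (log2 fold change -0.14, edgeR adjusted p = 0.0790). The list's median log2 fold change was 0.02.

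The rest of the contractile programme held no called gene in edgeR. At an unadjusted p under 0.05, 11.6% of all tested genes were lower and 10.5% higher, and DESeq2 called 2.23% lower and 3.41% higher. The 15 other contractile genes include myosin light chain kinase and further actin-binding proteins of smooth muscle. Of these, 11 were tested, the median log2 fold change was -0.09, and 2 were lower and 2 higher at an unadjusted p under 0.05. DESeq2 called 1 of them lower, MYLK, the myosin light chain kinase (log2 fold change -0.17, DESeq2 adjusted p = 0.0482). Their highest level was 21.6 FPKM, that of PDLIM7. Of 11 SRF partners and regulators, 10 were tested, with a median of -0.03 and FHL1 as the most abundant (33.1 FPKM); 1 was lower at an unadjusted p under 0.05, and DESeq2 called 0. MYOCD, the muscle-restricted SRF coactivator, was the one not tested, and its mean was 0.0268 FPKM in LX-2Vector and 0.0407 in LX-2FAP, while SRF itself had 11.6 and 10.9 FPKM.

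Among 16 further filament genes (keratins, lamins, neurofilaments, plectin, nestin and others), 12 were tested and 0 called by edgeR or DESeq2, with a median of -0.03. At an unadjusted p under 0.05 (11.6% of all tested genes lower, 10.5% higher), 2 of them were lower. LMNB1 was the most abundant of them (54.7 FPKM). VIM held 81.8%, 81.4% and 82.5% of the FPKM of 14 cytoplasmic filament genes in LX-2Vector and 83.7%, 83.7% and 84.7% in LX-2FAP, again without overlap. KRT8 and KRT18, the simple epithelial keratins, held 6.62% ± 0.238 and 9.95% ± 0.393 in LX-2Vector and 5.73% ± 0.189 and 8.92% ± 0.316 in LX-2FAP. Striated muscle genes were largely undetected: 13 of 20 had 3 or fewer counts in every library, 3 were tested and 0 were called by edgeR (0 at an unadjusted p under 0.05). TNNT1, a troponin of slow skeletal muscle, was the most abundant at 23.5 FPKM in LX-2Vector and 21.4 in LX-2FAP, more than 10 times the level of ACTA2 on that scale, and MYH3, an embryonic heavy chain, had 0.778 and 0.729 FPKM.

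**Figure D5:**
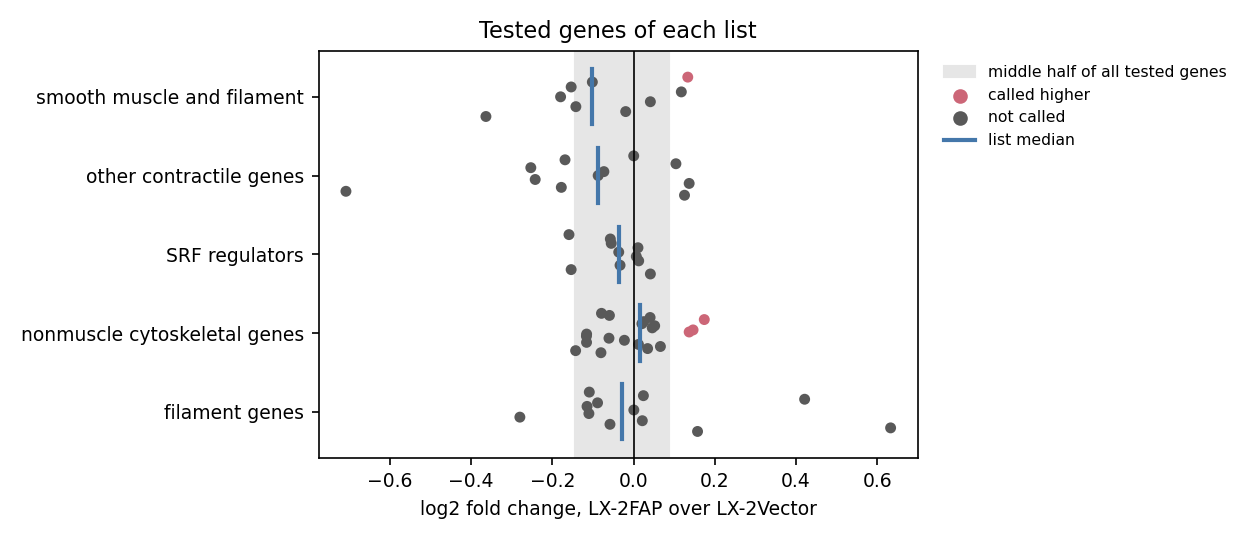
Log2 fold changes, LX-2FAP over LX-2Vector, of the tested genes in 5 lists (points, red where called higher), with each list's median (blue bar) and the interquartile range of all tested genes (grey band). VIM in the first list and TPM3, MYL12B and MYL12A among the nonmuscle cytoskeletal genes are the only called genes, and the medians run from -0.10 to 0.02.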

How the data were processed

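Groups and replicate numbers came from the sample titles. The authors deposited whole-number counts per gene, not normalized, and FPKM computed from those counts and a gene length. The submitters' processing notes name HISAT2 2.0.5, featureCounts 1.5.0-p3, DESeq2 1.16.1, edgeR and the build hg18; the annotation and the use of strand in counting are not given in the sources used here. The labels describe depletion of ribosomal RNA, and the methods also name a poly(A) step. Gene coordinates are those of GENCODE release 29 (GRCh38), matched by Ensembl identifier, and none was taken from the files.

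Counts were tested with edgeR 4.0.16 (quasi-likelihood, TMM, filterByExpr with a minimum count of 10 and a minimum total of 15) in R 4.3.3, LX-2FAP against LX-2Vector, 3 libraries each, without covariates, with Benjamini-Hochberg adjustment across the 18275 genes tested. All p-values were 2-sided. Standard errors and 95% intervals were derived from the test statistic. Fold changes are LX-2FAP over LX-2Vector. Alternatives were DESeq2 1.42.0, limma-trend 3.58.1 on log2(FPKM + 1) and log2(FPKM + 0.1), other scalings and filters, removal of GC or length trends, a block for replicate number, omission of each library in turn, and the study's cutoff. A GC content was at hand for 98.1% of the tested genes. Within groups, pairs of libraries differed beyond sampling noise (chi-square of 2.02 to 4.99 per degree of freedom), so none was taken as a duplicate.

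All 10 genes were named with their values. Of the other lists, called genes and the most abundant gene were named, and MYLK, MYOCD, MYH3, SRF, KRT8, KRT18, TPM4, SPARC, the nonmuscle relatives in the family shares, and markers at 0 were picked after their values were seen. The members and lists were chosen with earlier results of these data known. RefSeq promoter windows were of GRCh38.p14. One list of genes and one marker gene are not reported here.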

Additional observations from a re-analysis of the deposited data

How the results depend on the processing

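Over the 9 tested genes and the alternative settings, 117 of 139 fold changes kept their direction and their side of the threshold. Those that reversed were near 0: ACTG2 reached 0.020 with the GC trend removed and ran from -0.14 to 0.16 with a library left out, and MYH11 fell to -0.00051 with limma-trend on log2(FPKM + 0.1) and ran from -0.025 to 0.10 with a library left out. Genes of the set called lower numbered 2 with no filter on low counts and with library size alone, 1 in DESeq2, under the study's cutoff and with the replicate block, and 0 to 2 with a library left out. The one called higher (0 to 1 with a library left out) was lost, leaving 0, with library size alone, both limma-trend fits and the study's cutoff. Genes called in all numbered 967 in the reported fit, 1606 with no filter, 2 in each limma-trend fit, 471 with the GC trend removed, and 26 (without LX-2FAP replicate 3) to 1949 (without LX-2FAP replicate 1) with a library left out. Library size alone gave 809 lower and 239 higher calls, against 498 and 469.

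Nonmuscle cytoskeletal genes called higher numbered 1 with library size alone, 2 with the block and with the GC trend removed (both without MYL12A, edgeR adjusted p = 0.0552 and 0.0506), 0 in both limma-trend fits and the study's cutoff, and 0 to 3 with a library left out. Those called lower numbered 2 with no filter or library size alone, 1 with the block, and 0 to 3. Other contractile genes had 1 lower with no filter, DESeq2, library size alone and the study's cutoff, 1 higher with the GC trend removed, and 0 to 1 each way with a library left out. Filament genes had 1 higher with the GC trend removed. The cause of these changes was not tested.

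Deviations of same-numbered libraries from their group means had a Pearson r across genes of -0.07, 0.09 and -0.02 for numbers 1, 2 and 3. Between libraries of different numbers, r ran from -0.18 to 0.20. With 3 libraries a side, these values cannot tell whether same-numbered libraries were prepared together. With the block MYL9 was called lower (edgeR adjusted p = 0.0303) and 975 genes were called in all. Depth limits DES, with at most 1 count in a library, and ACTG2, with 8 to 16.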
